A study of Mus musculus with 24 samples.

Results

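Regulators of G protein signalling (RGS proteins) were described here across CD8 T cells of the pancreas and blood of mice. The 8 genes Rgs1, Rgs2, Rgs3, Rgs10, Rgs11, Rgs14, Rgs16 and Rgs19 were found by symbol among 24421 counted genes. They are 8 of 21 genes of the RGS family in the files. They were chosen by their CPM (reads of a gene scaled to a common library total) across tissue groups and ages in these libraries, so their differences between tissues and ages are given as a description. No p value is given for a member, and counts of members past a threshold stand only beside the share of all genes past it.

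The study sorted T cells that carry CD45, CD3 and CD8 and sequenced their total RNA in 24 libraries. KC mice, a model in which precursor lesions of pancreatic cancer arise with age, gave 12 pancreas and 9 blood libraries. WT B6 mice, the controls, gave 2 pancreas libraries (9 and 30 weeks) and 1 blood library (30 weeks). The labels state neither the alleles of the KC mice, nor the Cre driver, nor whether cells of several mice were pooled, nor any treatment. In KC pancreas 3 libraries each were from mice of 4 and of 13 weeks, and 2 each from mice of 9, 20 and 30 weeks. In KC blood there were 2 libraries at 4 weeks, 1 at 9 weeks, 3 at 13 weeks, 1 at 20 weeks and 2 at 30 weeks. The letter P in a title marks pancreas and the letter B blood, and the number before that letter recurs in both tissues. No label says that libraries came from separate animals, so a test between them measures the spread between these samples, which may be technical.

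As background, receptors coupled to G proteins, among them chemokine and sphingosine phosphate receptors, start signalling when a G protein alpha subunit binds GTP. RGS proteins bind the active alpha subunit and speed up its GTP hydrolysis, which ends the signal. In T cells they are known for setting how strongly cells respond to chemokines and how they move in and out of tissues. Rgs1, Rgs2, Rgs3 and Rgs16 belong to the R4 subfamily, Rgs10 and Rgs14 to the R12 subfamily, Rgs19 to the RZ subfamily and Rgs11 to the R7 subfamily.

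Of the 8 genes, 3 lie on chromosome 1 in the GENCODE M21 annotation of mm10, the build named in the submitters' processing notes. Rgs2 (ENSMUSG00000026360.9) occupies chr1:143999338-144004161 and Rgs1 (ENSMUSG00000026358.13) chr1:144242296-144249242, both on the minus strand. Rgs16 (ENSMUSG00000026475.7) occupies chr1:153740349-153745468 on the plus strand. The 250 bases before the RefSeq start site (GRCm38.p6) are shown for Rgs2, the gene with the greatest difference in median level between the tissues in CPM, and for Rgs16, a gene of the same subfamily and chromosome that was near 0. Both are printed 5′ to 3′ on the strand of the gene, and capitals mark the half-site of the cAMP response element, TGACG, on either strand.
Rgs2, chr1:144004150-144004399, minus strand: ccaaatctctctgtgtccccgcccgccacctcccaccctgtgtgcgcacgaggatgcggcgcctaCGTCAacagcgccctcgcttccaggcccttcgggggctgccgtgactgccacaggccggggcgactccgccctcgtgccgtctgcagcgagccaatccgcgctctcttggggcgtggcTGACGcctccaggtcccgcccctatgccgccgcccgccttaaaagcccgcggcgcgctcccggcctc
Rgs16, chr1:153740103-153740352, plus strand: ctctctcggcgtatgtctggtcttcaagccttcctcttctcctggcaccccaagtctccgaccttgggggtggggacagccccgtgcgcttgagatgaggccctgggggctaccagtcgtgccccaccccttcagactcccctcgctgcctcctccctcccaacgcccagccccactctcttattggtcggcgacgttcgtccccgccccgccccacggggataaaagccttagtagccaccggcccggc
The Rgs2 window held 2 half-sites, which begin 185 and 67 bases before the start, and the Rgs16 window held none. Among 32851 RefSeq promoter windows of 250 bases, 17.8% held at least 1 half-site and 3.9% held 2 or more. The other promoter entries, for Rgs3, Rgs10 and Rgs19, held none. The full element TGACGTCA (1.55% of windows) and the AP-1 motif TGANTCA (6.75% of windows) were in no window of these 5 genes, on either strand. The Sp1 motif GGGCGG, which 32.7% of windows hold, occurred 4 times before Rgs2 and 2 times before Rgs16 and overlapped no half-site. These are matches of letters, and binding was not measured.

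The libraries held between 6352070 and 16716169 counts in genes, so 1 count was worth 0.0598 to 0.157 CPM. The labelled cell type was checked against its markers. Cd3e ran from 3791 to 15654 CPM, Cd8a from 587 to 3003 CPM and Cd8b1 from 282 to 1776 CPM, against 13.3 to 39.4 CPM of Cd4. RNA of other cells was also present. Markers of acinar cells summed to 1557, 8908 and 4658 CPM in the KC pancreas libraries of 4 weeks. Their sums were 3631 and 965 CPM in WT pancreas, at most 488 CPM in the other KC pancreas libraries and at most 73.8 CPM in KC blood. The part of such cells in the levels of the members was not tested. By 93 genes abundant in a single library and seen as traces elsewhere, the libraries were split by clustering into 2 sets, a number fixed in advance. No label names such sets, and carry-over of reads between libraries as the source of the traces was not tested. Set 1 held the KC pancreas libraries of 4 and 13 weeks, Sample_42B8, Sample_43B8, Sample_131B8 and the 3 WT libraries, and set 2 held the others. A trace was detected in 92.4% of the libraries of the source's own set, at a median of 0.205% of its level there, and in 48.7% of the libraries of the other set. The sets were drawn from these same traces, so nothing is read from this gap. Differences between KC pancreas and KC blood are also given within each set. In bulk RNA, fewer cells that express a gene and less of its RNA per cell cannot be told apart.

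In KC pancreas Rgs2 was the member with the highest median count level, 247 CPM, followed by Rgs10 with 98.9, Rgs1 with 79.3 and Rgs19 with 71.4 CPM. In KC blood Rgs10 had the highest median, 71.9 CPM, followed by Rgs3 with 38.6, Rgs19 with 28.6 and Rgs2 with 18.3 CPM. Per kb of the longest coding transcript, Rgs10 led in both tissues, with medians of 112 CPM per kb in KC pancreas and 81.8 CPM per kb in KC blood. Rgs2 came second per kb in KC pancreas with 81.8 CPM per kb and in KC blood stood at 6.06 CPM per kb, behind Rgs19 with 18.9 and Rgs3 with 8.2 as well as Rgs10. Neighbours in these orders overlapped in their ranges over libraries, which are wide: Rgs10 alone spanned 10.1 to 436 CPM in KC pancreas.

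**Figure D1:**
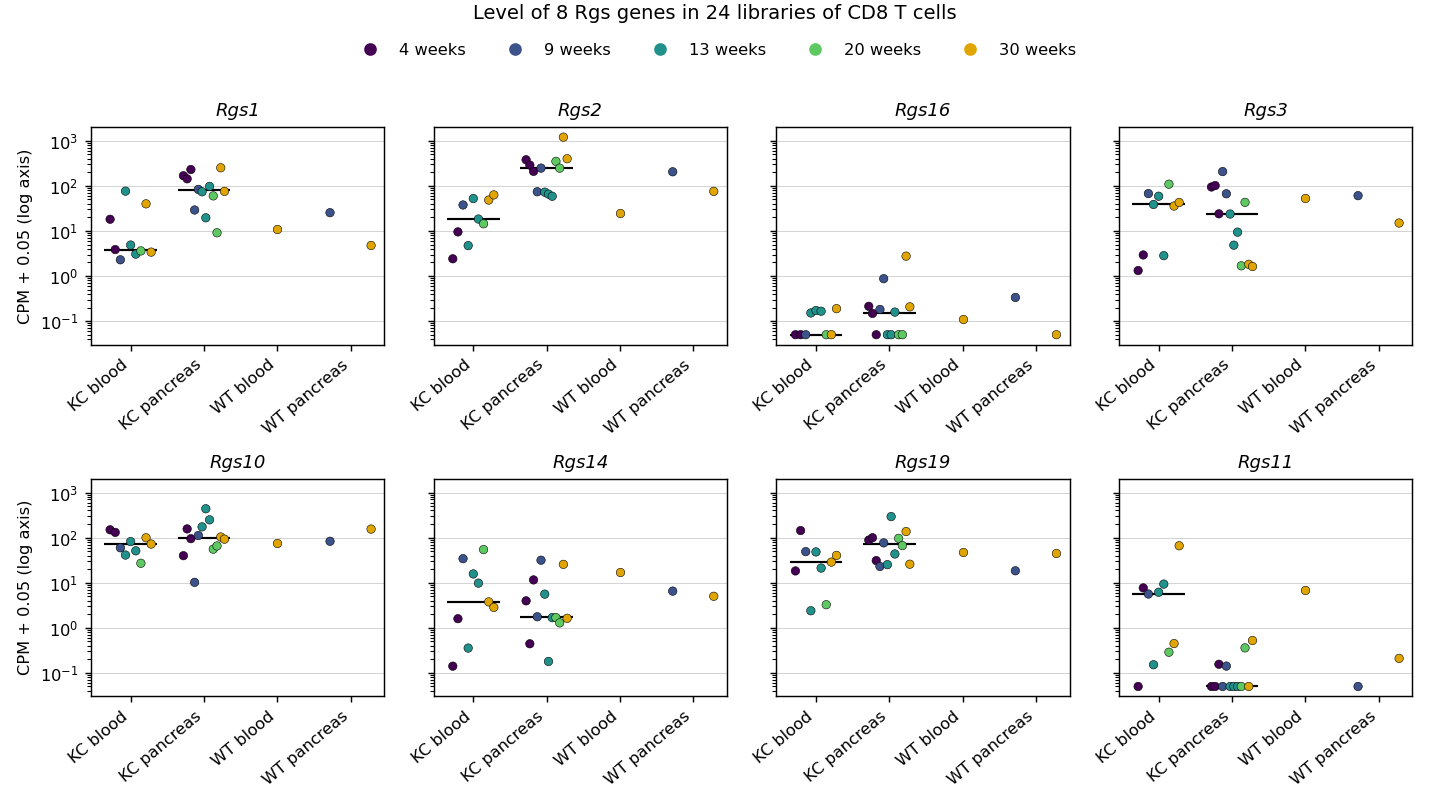
Level of each of the 8 Rgs genes in the 24 libraries, as CPM + 0.05 on a log axis, by group, with 1 point per library coloured by age and a line at the median of the 2 KC groups. Rgs2 in KC pancreas lies between 58.6 and 1199 CPM, and only the lowest of its 12 points is under the highest KC blood library, and Rgs11 is at 0.472 CPM or less in KC pancreas.

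The mix of members also differed between libraries. The summed level of the 8 genes ran from 103 to 717 CPM per kb in KC pancreas (median 285) and from 78.0 to 252 CPM per kb in KC blood (median 165). Rgs10 made up 36.2% to 90.5% of that sum in the 9 KC blood libraries and led in all 9. In KC pancreas Rgs10 led in 6 libraries, Rgs2 in 5 and Rgs3 in 1, and the share of Rgs2 ran from 3.03% to 58.2% (median 26.2%). In KC blood the share of Rgs2 ran from 0.418% to 12.02% (median 6.89%). The shares of Rgs1 were 0.709% to 22.4% in KC pancreas and 0.393% to 25.4% in KC blood, with medians of 7.21% and 0.892%.

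**Figure D2:**
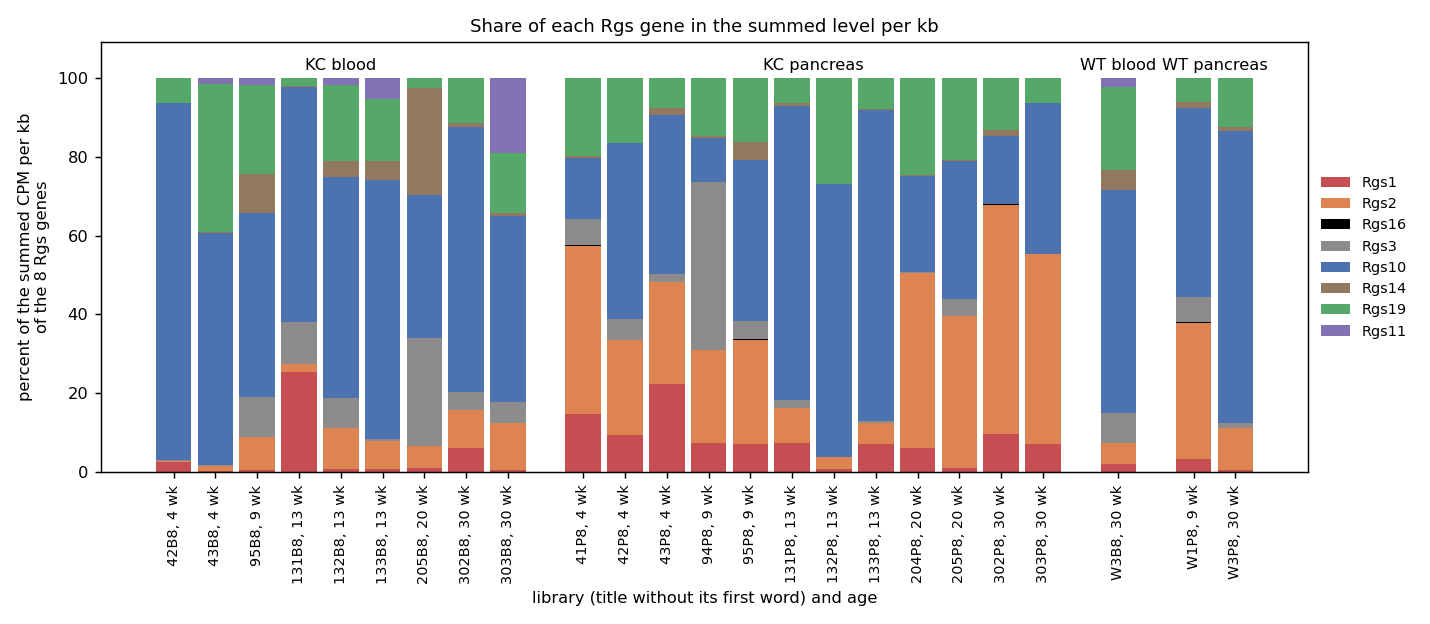
Share of each Rgs gene in the summed CPM per kb of the 8 genes, 1 bar per library ordered by group and age. Rgs10 leads in all 9 KC blood bars, while Rgs2 and Rgs10 alternate as the leading gene in KC pancreas, except for Rgs3 in the 9-week library Sample_94P8.

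Rgs2, which acts mainly on alpha subunits of the Gq class and also restrains adenylyl cyclase signalling, was higher in KC pancreas than in KC blood. In KC pancreas its CPM had a lowest value of 58.6, a median of 247 and a highest value of 1199, the last in Sample_302P8. In KC blood the lowest value was 2.36, the median 18.3 and the highest 62.9, in Sample_303B8. The groups overlapped by 1 library, since Sample_133P8 with 58.6 CPM lay under Sample_303B8 alone, and 11 of 12 pancreas libraries lay above every blood library. After TMM scaling (trimmed mean of M values, which corrects for composition) the lowest pancreas library had 78.7 CPM and the highest blood library 42.7 CPM, with no overlap. By that measure 0.0362% of 11059 genes did not overlap, and without the scaling 0.0271%, with no member among them.

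The fitted difference of Rgs2 was a log2 fold change of 3.69 ± 0.60 (SE, 12 against 9 libraries, with age as a factor). Pancreas and blood libraries with the same title number and age formed 9 pairs, in which Rgs2 was higher in pancreas 9 times, by 0.32 to 6.43 (log2 ratio with 1 added to the CPM, median 3.69). The pair with the smallest ratio was Sample_132P8 and Sample_132B8, with 65.5 CPM in pancreas and 52.2 CPM in blood, and that with the greatest was Sample_42P8 and Sample_42B8, with 288 and 2.36 CPM. Within set 1 the fold change was 4.44 ± 1.43, and within set 2 it was 3.88 ± 0.63.

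By age, Rgs2 in KC pancreas stood at 209, 288 and 379 CPM at 4 weeks, at 73.9 and 247 CPM at 9 weeks, and at 58.6, 65.5 and 72.3 CPM at 13 weeks. It was at 247 and 348 CPM at 20 weeks and at 399 and 1199 CPM at 30 weeks. The 3 libraries of 13 weeks were thus the lowest of the 12 in CPM. TMM scaling placed Sample_132P8 and Sample_133P8 at 141 and 111 CPM, and all 3 then lay above Sample_94P8 of 9 weeks with 78.7 CPM. In KC blood the values were 2.36 and 9.47 CPM at 4 weeks, 37.6 at 9 weeks, 4.68, 18.3 and 52.2 at 13 weeks, 14.4 at 20 weeks and 48.3 and 62.9 at 30 weeks. At every age the lowest KC pancreas library lay above the highest KC blood library, though KC blood had only 1 library at 9 and at 20 weeks. The share of all genes with this order was not computed, so nothing is read from it.

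Rgs1, which blunts responses to chemokines and is known from T cells that stay in tissues, had a lowest value of 9.06, a median of 79.3 and a highest value of 251 CPM in KC pancreas. In KC blood the lowest value was 2.24, the median 3.81 and the highest 76.2 CPM. Of the 9 blood libraries 6 lay below every pancreas library, and Sample_131B8 (76.2), Sample_302B8 (39.8) and Sample_42B8 (18.1) lay within the pancreas range. The log2 fold change was 2.90 ± 0.89 (SE), and without Sample_131B8 it was 4.07 ± 0.80. Rgs1 was higher in pancreas in 8 of 9 pairs, the exception being Sample_131P8 with 73.7 CPM against Sample_131B8 with 76.2 CPM. Within set 1, which holds 3 blood libraries, the value was 1.36 ± 1.42, and within set 2 it was 3.95 ± 1.11.

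Rgs1 was highest in KC pancreas at 4 weeks, with 143, 167 and 230 CPM, and in 1 library of 30 weeks, Sample_302P8, with 251 CPM. It was at 29.1 and 83.3 CPM at 9 weeks, at 19.5, 73.7 and 97.2 CPM at 13 weeks, at 9.06 and 59.8 CPM at 20 weeks and at 75.4 CPM in the other library of 30 weeks. In unscaled CPM the libraries of 9, 13 and 20 weeks lay below all 3 of 4 weeks. After TMM scaling this order was lost, since Sample_133P8 of 13 weeks had 184 CPM of Rgs1, above Sample_41P8 and Sample_42P8 of 4 weeks with 142 and 124.

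Rgs16, which is known to be induced in activated T cells and acts on Gi and Gq subunits, was close to the limit of detection. KC pancreas held 38 counts in all over 108383849 counts, of which Sample_302P8 held 23 and Sample_95P8 held 9, and each other pancreas library held 2 or fewer. KC blood held 5 counts over 89932946, with 2 at most in a library. Rgs16 was therefore not tested, and no fold is given, since 10 of 12 pancreas and 9 of 9 blood libraries were at or under 3 counts. Its exons share 236 bases with the antisense gene Gm28513, and reads of the 2 cannot be told apart where strand was not used in counting.

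Rgs3, which acts on Gi and Gq subunits and blunts chemokine responses, spanned 1.57 to 207 CPM in KC pancreas (median 23.8) and 1.27 to 108.7 CPM in KC blood (median 38.6). The groups overlapped over nearly their whole range, and the log2 fold change was -0.69 ± 1.10. In KC pancreas the values were 23.9, 94.2 and 101 CPM at 4 weeks, 66.6 and 207 at 9 weeks, 4.78, 9.34 and 23.7 at 13 weeks, 1.64 and 42.9 at 20 weeks, and 1.57 and 1.77 at 30 weeks. In unscaled CPM all 5 libraries of 4 and 9 weeks lay above the 5 of 13 and 30 weeks, the closest of these, 23.9 and 23.7 CPM, by little. After TMM scaling they overlapped, with 28.9 CPM in Sample_131P8 of 13 weeks and 25.5 CPM in Sample_43P8 of 4 weeks. In KC blood Rgs3 was at 1.27 and 2.88 CPM at 4 weeks, at 67.3 at 9 weeks, at 2.78, 38.6 and 58.8 at 13 weeks, at 108.7 at 20 weeks and at 35.6 and 42.7 at 30 weeks. Blood libraries of 4 weeks were thus low where pancreas libraries of that age were high, and at 30 weeks both blood libraries lay above both pancreas libraries.

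Markers of B cells moved with Rgs3. All 8 had a count in both KC groups, none was called between tissues, and their sums ran from 1.09 to 96.4 CPM in KC pancreas and from 2.27 to 97.0 CPM in KC blood. In KC blood the sum was lowest at 4 weeks, with 2.27 and 2.78 CPM, and highest at 9 weeks with 97.0 and at 20 weeks with 52.4 CPM. In KC pancreas it was 5.27 to 96.4 CPM at 4 weeks, 39.4 and 42.2 CPM at 9 weeks and 1.09 to 2.43 CPM at 13 weeks. Spearman's correlation of Rgs3 with this sum was 0.72 over the 21 KC libraries, 0.58 over the 12 of pancreas and 0.85 over the 9 of blood, where all values share library and depth. Their part in the level of Rgs3 was not tested.

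Rgs10, a small protein of little more than the RGS domain that acts on Gi subunits, had a lowest value of 10.1, a median of 98.9 and a highest value of 436 CPM in KC pancreas. In KC blood it ran from 26.9 to 149 CPM with a median of 71.9. The 9 blood libraries all lay within the pancreas range, and the log2 fold change was 0.93 ± 0.62. Rgs10 was higher in pancreas in 8 of 9 pairs, by most in the 3 pairs of 13 weeks with log2 ratios of 2.05 to 2.40. At 13 weeks KC pancreas stood at 173, 248 and 436 CPM, above each other KC pancreas library. These 3 libraries are of set 1, and the value within set 1 was -0.21 ± 1.14, against 0.81 ± 0.82 within set 2.

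Rgs14, which carries a Gi-binding GoLoco motif beside its RGS domain, was present at 10 or more CPM in some libraries and nearly absent in others of the same group. KC pancreas ran from 0.129 to 31.5 CPM (median 1.67) and KC blood from 0.0909 to 54.2 CPM (median 3.71). The highest libraries were Sample_95P8 (31.5), Sample_302P8 (25.4) and Sample_43P8 (11.5) in pancreas and Sample_205B8 (54.2), Sample_95B8 (34.1) and Sample_132B8 (15.6) in blood. The groups overlapped, and the log2 fold change was -0.19 ± 1.26, with 2.36 ± 1.74 within set 1 and -0.85 ± 1.75 within set 2.

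Rgs19, also called GAIP, which acts on Gi subunits, had a lowest value of 22.9, a median of 71.4 and a highest value of 293 CPM in KC pancreas. In KC blood the lowest value was 2.34, the median 28.6 and the highest 143 CPM. The highest blood library, Sample_43B8, exceeded 11 of 12 pancreas libraries, and 4 blood libraries lay below every pancreas library. The log2 fold change was 1.75 ± 0.83, and 7 of 9 pairs were higher in pancreas, the exceptions being the pairs of Sample_43P8 and Sample_303P8. Within set 1 the value was 0.48 ± 1.61 and within set 2 it was 1.89 ± 1.03.

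Rgs11, of the subfamily that pairs with the beta subunit Gnb5 and is best known from the retina, differed in the other direction. In KC pancreas 8 of 12 libraries had no count and the others had 1 to 3, which makes 8 counts over the group, 0.0738 CPM when pooled. In KC blood 5 of 9 libraries held more than 3 counts: Sample_95B8 62, Sample_43B8 74, Sample_133B8 80, Sample_132B8 100 and Sample_303B8 474. The other 4 blood libraries held 0 to 3 counts, so these overlap with pancreas and the 5 do not. The log2 fold change was -6.37 ± 1.47, a value that depends on the prior count of the fit because the pancreas libraries were at or under 3 counts.

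The same contrast stood in the WT libraries, with 112 counts in the blood library and 0 and 2 counts in the pancreas libraries. Set 1 alone gave no value for Rgs11, since it failed the filter on low counts there, and set 2 alone gave -5.43 ± 2.07. Exons of Rgs11 share 138 bases, 3.28% of their length, with Arhgdig on the opposite strand, which had at most 0.294 CPM in the KC libraries. Markers of platelets summed to 41.1 to 292 CPM in KC blood and to 4.34 to 95.04 CPM in KC pancreas, and those of erythroid cells to 24.4 to 495 and to 4.13 to 94.1 CPM. All 8 platelet markers had a count in KC blood, and Gp1bb was at 0 in KC pancreas. Ppbp gave 289 of the 292 CPM of the highest platelet sum in KC blood, that of Sample_205B8. Spearman's correlation of Rgs11 with the platelet sum was 0.64 over the 21 KC libraries, 0.23 over the 12 of pancreas and 0.33 over the 9 of blood. With the erythroid sum it was 0.53, 0.07 and 0.35. Of the 8 erythroid markers, the 4 globin genes listed were at 0 in both tissues. Their part in the level of Rgs11 was not tested.

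**Figure D3:**
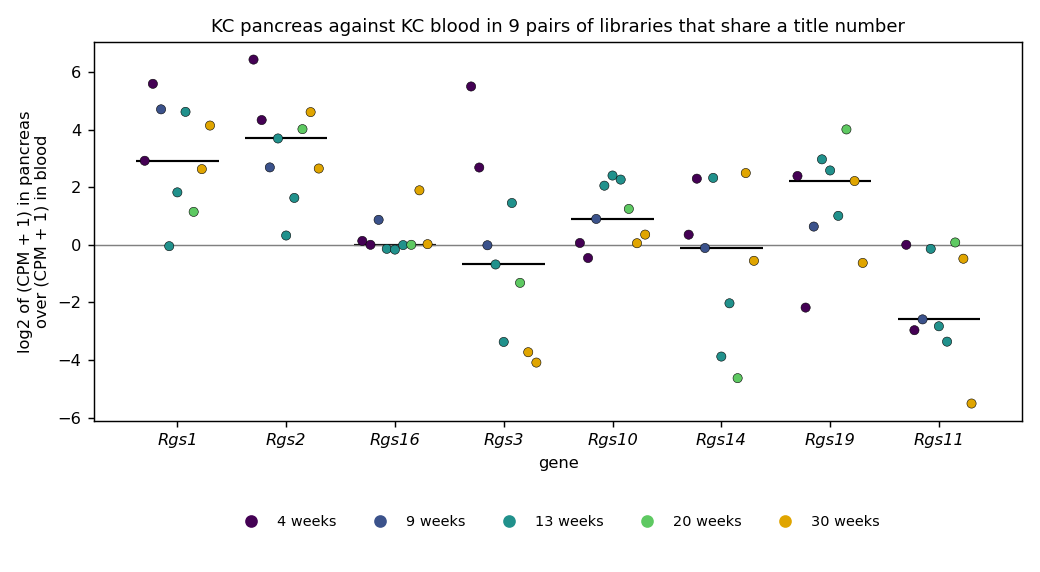
Log2 ratio of pancreas over blood, with 1 added to each CPM, for the 9 KC pairs with the same title number, 1 point per pair coloured by age and a line at the median of each gene. All 9 points of Rgs2 lie above 0, as do 8 of 9 for Rgs1 and Rgs10, and 7 of 9 points of Rgs11 lie below it.

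Set against all genes, the fit between KC pancreas and KC blood called 10 of 11059 genes at an adjusted p under 0.05 (0.0904%), by edgeR's quasi-likelihood test with Benjamini-Hochberg adjustment. Of the 8 members 7 passed the filter on low counts, and 1 of the 7, Rgs2, was called higher in pancreas. At an unadjusted p under 0.05 there were 4 of 7 members (Rgs1, Rgs2, Rgs11 and Rgs19), against 9.85% of all genes. The members were chosen for their pattern across these tissues and ages, so nothing follows from these counts or from those of the age trends. Rgs11 was called as well when Sample_131B8, Sample_205B8, Sample_42B8 or Sample_205P8 was left out, and Rgs1 when Sample_131B8 was left out. Within set 1 no member was called.

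**Figure D4:**
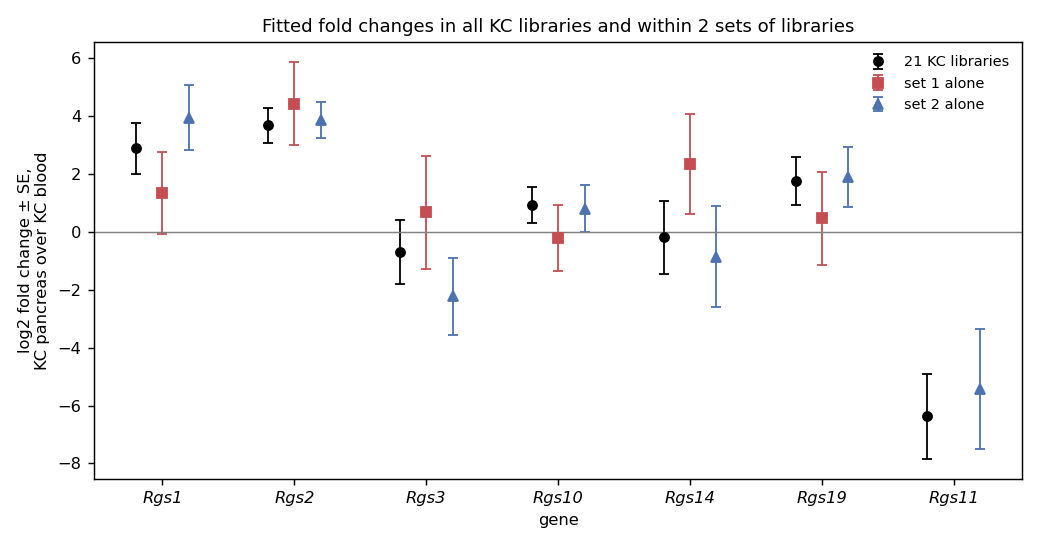
Log2 fold change of KC pancreas over KC blood, with its SE, for the 7 tested members in all 21 KC libraries and within each of 2 sets of libraries split by traces. Rgs2 lies between 3.69 and 4.44 in the 3 fits, while Rgs3, Rgs10 and Rgs14 lie on both sides of 0.

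Age trends were fitted as the log2 change per 10 weeks. In KC pancreas 28 of 9555 genes were called (0.293%) and 8.95% had an unadjusted p under 0.05, and of 6 tested members none was called and 2 had an unadjusted p under 0.05. The slope of Rgs3 was -2.01 ± 0.78 and that of Rgs2 was 0.69 ± 0.28. Slopes of Rgs1 (-0.03 ± 0.38), Rgs10 (-0.15 ± 0.67), Rgs14 (0.29 ± 0.62) and Rgs19 (0.12 ± 0.61) were within 1 SE of 0. DESeq2 called 124 genes higher and 298 lower with age among the 9555. Of the members it called 1, Rgs3, on the same values by which Rgs3 was chosen, and nothing is read from that. In KC pancreas age and set go together, since set 1 holds all libraries of 4 and 13 weeks. With the set as a term, the slope was -2.72 ± 0.85 for Rgs3, 0.76 ± 0.49 for Rgs2 and 1.06 ± 0.53 for Rgs10.

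In KC blood none of 9933 genes was called by edgeR (0%), 8.76% had an unadjusted p under 0.05, and DESeq2 called 120 higher and 195 lower with age. Of the 7 tested members none was called by edgeR, none had an unadjusted p under 0.05, and DESeq2 called none, with no adjusted p given for Rgs1. The slopes ran from -0.75 ± 0.53 (Rgs19) to 0.91 ± 0.71 (Rgs11), with 0.73 ± 0.94 for Rgs3 and 0.68 ± 0.61 for Rgs2. Without Sample_303B8 the slope of Rgs11 was -1.75 per 10 weeks.

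The difference between the 2 slopes, pancreas minus blood, was tested as an interaction. It was called for 6 of 11059 genes (0.0543%), with 8.33% at an unadjusted p under 0.05, and for none of 7 members, of which 1 had an unadjusted p under 0.05. DESeq2 called 103 genes with a positive and 135 with a negative difference among the 11059. Of the members it called 1, Rgs3, from which nothing is read for the same reason. The difference was -2.76 ± 1.16 for Rgs3 and 0.02 ± 0.53 for Rgs2. The Rgs2 slopes in pancreas and blood thus differed by less than their error, at 0.69 and 0.68 per 10 weeks.

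**Figure D5:**
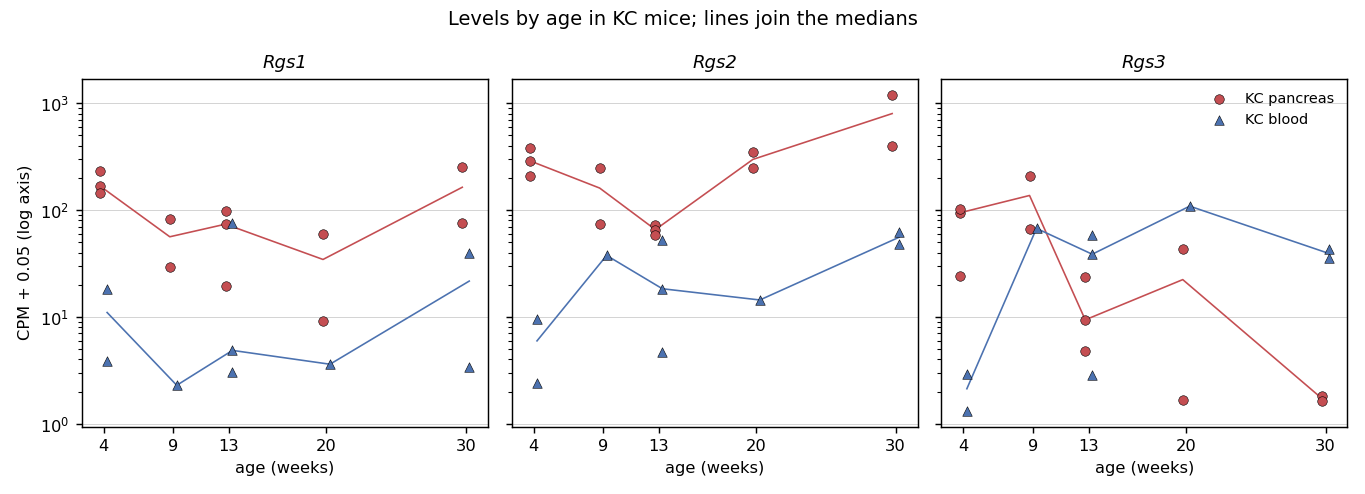
CPM + 0.05 on a log axis against age in weeks for Rgs1, Rgs2 and Rgs3, with KC pancreas as circles, KC blood as triangles, 1 symbol per library and lines through the medians. Rgs2 in KC pancreas dips to 58.6 to 72.3 CPM at 13 weeks, and Rgs3 in KC pancreas ends at 1.57 and 1.77 CPM at 30 weeks, below both KC blood libraries of that age.

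KC pancreas was compared with the 2 WT pancreas libraries, Sample_W1P8 of 9 weeks and Sample_W3P8 of 30 weeks. The WT values of Rgs2 were 204.8 and 75.3 CPM, within the KC range of 58.6 to 1199. Those of Rgs1 were 25.3 and 4.71 CPM, the second of them below all 12 KC pancreas libraries. Of 10829 genes 21 were called (0.194%) and 5.03% had an unadjusted p under 0.05, and none of 6 tested members met either threshold. Fold changes of KC over WT were 2.35 ± 1.55 for Rgs1, 0.79 ± 1.05 for Rgs2, 1.17 ± 1.99 for Rgs14, 1.04 ± 1.27 for Rgs19, -0.77 ± 0.95 for Rgs10 and -1.39 ± 1.77 for Rgs3.

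These values rest on 2 WT libraries that differ from each other. Without Sample_W1P8 Rgs2 was at 3.61 and Rgs1 at 5.32. Without Sample_W3P8 Rgs2 was at -0.81 and Rgs1 at 0.72. Rgs3 ran from -2.96 without Sample_W1P8 to 1.19 without Sample_W3P8, with a change of sign. Both WT pancreas libraries are of set 1, while the KC pancreas libraries of their ages, 9 and 30 weeks, are all of set 2, so at matched age genotype and set cannot be told apart. At 30 weeks Sample_W3P8 had 75.3 CPM of Rgs2, against 399 and 1199 CPM in the KC libraries, and 154 CPM of Rgs10, against 92.2 and 103 CPM. The WT blood library had 24.5 CPM of Rgs2, 11.1 of Rgs1 and 74.3 of Rgs10, each within the range of KC blood.

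Of the 13 other genes of the family, 2 passed the filter between tissues. Rgs18, known from platelets and their precursors, had medians of 0.341 CPM in KC pancreas and 8.44 CPM in KC blood and a log2 fold change of -2.51 ± 1.25 (edgeR, adjusted p = 0.507). Like Rgs1 and Rgs2 it lies on chromosome 1. Its highest value, 75.7 CPM, was however in a pancreas library, Sample_41P8, where platelet markers summed to 51.9 CPM against 4.34 to 95.04 CPM in KC pancreas. Markers of mast cells summed to 128 CPM in that library and to 6.59 to 31.3 CPM in the other 11 of KC pancreas, with 1.02 to 33.3 CPM in KC blood. Of the 6 mast cell markers 3 had a count, and Mcpt4, Fcer1a and Tpsb2 were at 0 in both tissues. B cell and endothelial markers, at 96.4 and 247 CPM, were also highest there among KC pancreas libraries. Over the 12 pancreas libraries Spearman's correlation of Rgs18 was 0.55 with the mast cell sum and -0.12 with the platelet sum. It was 0.65 with the fibroblast sum and -0.85 with the erythroid sum. Over the 21 KC libraries and the 9 of blood it was 0.57 and 0.57 with the platelet sum, and 0.43 and -0.03 with the mast cell sum. The part of these cells in the level of Rgs18 was not tested. Rgs20, of the same subfamily as Rgs19, had 48 to 192 counts in 4 blood libraries and 60 in Sample_95P8, and at most 2 in the other KC pancreas libraries, with a log2 fold change of -4.95 ± 1.85 (edgeR, adjusted p = 0.316).

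The genes on which RGS proteins act were followed through 7 lists of 104 genes in the files that are no member. The lists were drawn up by function, not by how their genes moved. Of 74 tested between KC pancreas and KC blood, none was called by edgeR, 9 had an unadjusted p under 0.05, and DESeq2 called 2 higher and 1 lower. Their median log2 fold change was 0.06, against -0.12 over all genes tested. None was called for the age trend in KC pancreas (65 tested, 2 at an unadjusted p under 0.05), in KC blood (69 and 11) or for the difference of the trends (74 and 4), nor between KC and WT pancreas (68 and 1). DESeq2 called 3, 3, 1 and 0 genes in these comparisons, all with lower values.

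Among G protein alpha subunits, Gnas, the stimulatory subunit, had medians of 576 CPM in KC pancreas and 615 CPM in KC blood (log2 fold change -0.16 ± 0.45). Gnai2, the Gi subunit that chemokine receptors use in lymphocytes and a target of most members, had 192 and 275 CPM (0.00 ± 0.44). Of 8 tested alpha subunits 0 were called and the median was -0.08. For the beta and gamma subunits the figures were 0 of 9 and 0.08, with Gnb1 at 121 and 163 CPM (0.08 ± 0.60) and Gng10 at 42.6 and 36.3 CPM (-0.01 ± 0.81).

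Of the receptors upstream, 14 chemokine and sphingosine phosphate receptors were tested and 0 called, with a median of -0.08. S1pr1, the receptor that guides T cells out of tissue into blood, had 811 and 891 CPM in KC pancreas and KC blood (-0.20 ± 0.36), and Ccr7, the lymph node homing receptor, 345 and 377 CPM (0.35 ± 0.42). Among 13 other receptors of T cells, 0 were called with a median of 0.38, including Gpr65, a proton sensor (183 and 176 CPM, 0.81 ± 0.52), and Gpr18 (85.4 and 116 CPM, -0.98 ± 0.72). The fold changes of S1pr1, Ccr7 and Gnai2 were thus each smaller than 1 SE.

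Of 11 tested kinases, arrestins and alpha subunit cofactors 0 were called, with a median of 0.18. Gpsm3, a Gi-binding GoLoco protein, had 62.2 and 13.2 CPM (1.31 ± 0.77), and Arrb2, an arrestin that uncouples receptors, 25.2 and 55.1 CPM (0.18 ± 0.82). Of 17 effectors 0 were called, with a median of 0.16. Pde4b, which breaks down cAMP, had 400 CPM in KC pancreas and 282 CPM in KC blood (1.05 ± 0.45, edgeR, adjusted p = 0.426), and Arhgef1, a protein with an RGS-like domain, 223 and 170 CPM (0.32 ± 0.48).

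The genes whose pattern over libraries was most like that of Rgs2 and Rgs1 were ranked by Spearman's correlation of TMM-scaled log2 CPM, a description with no test, in which all genes share the libraries and their depth. Over the 21 KC libraries Rgs2 was most like Tnfaip3 (correlation 0.92), Hspa1b (0.87), Nr4a3 (0.81), Dusp1 (0.81) and Ide (0.81). Over the 12 KC pancreas libraries alone the 5 were Plin3 (0.90), Il18rap (0.89), Leo1 (0.87), Fam172a (0.87) and Fam102b (0.85). For Rgs1 the 5 over 21 libraries were Fosb (0.84), Nr4a1 (0.83), Ddx5 (0.81), Ctla4 (0.78) and Nr4a3 (0.76). Over the 12 pancreas libraries they included Fos (0.87), Ppp1r15a (0.87), Tatdn2 (0.87) and 1700030L20Rik (0.85). No gene of either list over 21 libraries was among the 5 over 12, and the correlation of Rgs1 with Rgs2 was 0.55 over 21 libraries, 0.29 over the 12 of pancreas and -0.62 over the 9 of blood. Rgs16 was not ranked, since it was not tested.

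Several of these genes are immediate early genes, which are known to respond quickly to stimulation and to the dissociation of tissue. The 18 markers of that list summed to 1196 to 4992 CPM in KC pancreas (median 2619) and 647 to 1479 CPM in KC blood (median 1120), and 5 of 18 were called higher in KC pancreas. Spearman's correlation of Rgs2 with this sum was 0.74 over the 21 KC libraries, 0.08 over the 12 of pancreas and 0.40 over the 9 of blood, and that of Rgs1 was 0.71, 0.53 and -0.03. Sample_302P8 had the highest sum and the highest levels of Rgs1 and Rgs2. In the libraries with the next highest sums, Sample_43P8 (3804 CPM) and Sample_132P8 (3476 CPM), Rgs1 was at 230 and 19.5 CPM. Rgs2 was at 209 and 65.5 CPM there. These values are without TMM scaling, whose factor for Sample_132P8, 0.464, was the lowest in KC pancreas. All 18 had a count in both KC groups, and Atf3 was at 0 in the WT libraries, whose sums were 1330 to 1486 CPM. Markers of macrophages and monocytes were also highest in Sample_302P8, at 560 CPM against a median of 45.6 CPM in KC pancreas. Spearman's correlation of Rgs1 with their sum was 0.17 over the 21 KC libraries, 0.63 over the 12 of pancreas and -0.93 over the 9 of blood. For Rgs2 it was 0.37, 0.50 and 0.52. Markers of CD4 T cells gave 0.69 for Rgs1 and 0.57 for Rgs2 over the 12 of pancreas, and 0.13 and -0.1 over the 9 of blood. Over the 21, 12 and 9 libraries the acinar sum gave 0.64, 0.55 and 0.75 for Rgs1. For Rgs2 it gave 0.16, -0.08 and -0.57. The T cell sum gave 0.11, -0.47 and 0.27 for Rgs1, and -0.15, -0.66 and -0.8 for Rgs2. C1qa was at 0 in KC blood. The part of these lists in the levels of Rgs1 and Rgs2 was not tested. The 7 measured markers of tissue residency summed to 238 to 932 CPM in KC pancreas, with a median of 417. In KC blood they summed to 118 to 514 CPM, with a median of 146, and none was called between tissues. Over the 21, 12 and 9 libraries their sum gave correlations of 0.59, -0.08 and 0.65 with Rgs2. With Rgs1 they were 0.45, 0.24 and -0.18. The part of these markers was not tested either. The 10 T cell markers summed to 6873 to 19328 CPM in KC pancreas and 6350 to 15583 CPM in KC blood.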

How the data were processed

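Total RNA of sorted T cells was measured by RNA sequencing in 24 libraries. The authors deposited raw read counts per gene for each library. TopHat, SAMtools, HTSeq, DESeq and mm10 are named in the submitters' processing notes, without their roles, and strand use in counting is not given in the sources used here. The 5 tallies of reads given to no gene were left out of totals. Genes hold 11.67% to 32.46% of tallied reads, and depth runs from 6352070 to 16716169 counts per library, which sets the CPM of 1 count. Floors of 3 counts cover counting error only, while SEs come from the spread between libraries.

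Groups and ages came from the labels. CPM was computed here on those totals. Genes were filtered with filterByExpr (minimum count 10) and tested with edgeR 4.0.16 in R 4.3.3 (TMM scaling, robust quasi-likelihood fit, Benjamini-Hochberg adjustment, threshold 0.05). The fit between tissues had age as a factor, and age trends had age as a number. SEs were taken from the log2 fold change and its F statistic. The code was tested on simulated data for the fit between tissues and the age trend in KC pancreas alone. The simulated spread was smaller than that of these libraries, so power here was not measured. DESeq2 1.42.0, RLE scaling, no filter, leaving out each library, the title number as a replicate block and the set of libraries split by traces were alternatives.

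The members and lists were chosen with earlier results of these data known. Besides the members, the text names the 2 genes of highest mean CPM per kb in each pathway list and the 5 genes most like Rgs1 and Rgs2, of which 1 is not reported here. Genes outside these rules were named after their values were seen. Same-numbered pancreas and blood libraries are not stated to be from 1 animal.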

Additional observations from a re-analysis of the deposited data

Results flagged for a closer look

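In 2 of the groups of KC libraries a single library stood far from the others, by a rule that chance meets in about 1 in 20 groups. Rgs11 in KC blood was highest in Sample_303B8 of 30 weeks, at 66.0 CPM, with the next library at 9.27 CPM, a gap of 0.86 of the group's range. Rgs19 in KC blood was highest in Sample_43B8 of 4 weeks, at 143 CPM, with the next library at 48.9 CPM, a gap of 0.67 of the range. Sample_303B8 held 474 of the 796 counts of Rgs11 in KC blood.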

How the results depend on the processing

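Of 33 fold changes of members, 671 of 724 values under alternatives kept their sign and 53 did not. Only 1 of the 33, that of Rgs2 between tissues, was called, and it reversed in no alternative. The sign between tissues differed in an alternative for 3 members, Rgs3, Rgs10 and Rgs14. Between tissues 1 member was called. It was 2 with no filter on low counts and with DESeq2 (Rgs2 and Rgs11), 0 in set 1 alone, where fewer libraries were fitted, and 1 to 3 when each library was left out (3 without Sample_131B8). DESeq2 called 3 pathway genes there (Cxcr4, Gng11, Gng12), 1 member and 3 pathway genes for the age trend in KC pancreas, 3 pathway genes for that in KC blood, and 1 member and 1 pathway gene for the difference of trends. With no filter 5 pathway genes were called for the age trend in KC pancreas, where 214 of 14417 genes were called higher and 472 lower. Elsewhere the cause was not tested. Over all genes DESeq2 called 165 higher and 314 lower between tissues, against 8 and 2. With no filter edgeR called 21 higher and 13 lower of 15248 between tissues. RLE scaling moved the median slope of all genes in KC blood from -0.12 to -0.24.

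With the title number as a replicate block, 1 member (Rgs2, 3.73 ± 0.68) and 0 pathway genes were called between tissues. In 7 pairs the deviations correlated from -0.056 to 0.0091, and 2 libraries correlated best with their own number, while in 9 of 9 pairs both libraries were above, or both below, 1000 CPM of Xist. Whether same-numbered libraries come from 1 animal was not settled by these values. Depth limits Rgs16 and Rgs11, which had 0 to 3 counts in most pancreas libraries.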

Other observations

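Rgs7bp, which binds RGS proteins of the R7 subfamily and is named here after its values were seen, had 16 to 426 counts in every one of the 24 libraries, while the R7 member Rgs11 had none in 8 of 12 KC pancreas libraries. Its highest level, 47.1 CPM, was in Sample_131P8.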
